A study of Mus musculus with 32 samples.

Results

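To determine how loss of *Trp53* changes lung tumor cells in which *Lkb1* has been restored, 4 RNA-sequencing libraries of *Trp53*-deficient restored tumors were compared with 7 libraries of *Trp53* wild-type restored tumors, out of 32 libraries in all. The *Trp53*-deficient libraries were those whose cohort label read Restored; Trp53delta/delta, and the wild-type libraries were those labelled Restored#1 to Restored#7. Per the genotype labels, all 11 came from mice that carried Lkb1XTR/XTR together with Rosa26LSL-tdTomato/FLPo-ERT2, in which Cre switches on tdTomato and turns a gene trap in the first *Lkb1* (gene symbol *Stk11*) intron into its silencing orientation. The 4 also carried Trp53flox/flox, which Cre recombines in the same cells. FLPo-ERT2, a recombinase that acts when tamoxifen is present, removes the trap and so restores *Lkb1*, and all 11 libraries came from mice given tamoxifen in 4 mg doses during the last 2 weeks. All 11 libraries came from females on a mixed C57BL/6J:129 background, with tumors started at 6 to 12 weeks of age by intratracheal lentiviral Cre. The *Trp53*-deficient tumors grew for 16 to 19 weeks and the wild-type tumors for 24 to 27 weeks, so *Trp53* status and tumor time cannot be told apart here. Live tdTomato-positive cells negative for CD45, CD31, F4/80 and Ter119 were sorted from microdissected tumors, and 2 to 10 ng of their RNA went into libraries depleted of ribosomal sequence. The study counts 4 mice for the wild-type restored group and the labels do not say which of its 7 libraries share a mouse, so the p-values treat libraries as independent.

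p53, the protein of *Trp53*, is a transcription factor that is held at low levels by the ubiquitin ligase Mdm2 and accumulates after DNA damage, oncogene activity or other stress. It binds DNA as a tetramer, with each response element made of a pair of similar half-sites, and switches on genes that arrest the cell cycle, promote cell death, repair DNA, alter metabolism or feed back on p53 itself. Its loss is common in lung adenocarcinoma, a tumor that can arise from alveolar type II cells, the surfactant-producing cells of the air sacs. LKB1 is a kinase that activates AMPK and related kinases and is lost in a share of the same tumors.

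The libraries held between 2145572 and 5032156 expected counts in the *Trp53*-deficient group and between 1658277 and 5943951 in the wild-type group. Of the wild-type libraries, Restored#4 and Restored#5 stood apart. Their Spearman correlation with each other across genes was 0.972, against 0.884 to 0.904 with the other 5 wild-type libraries, which correlated with each other at 0.933 to 0.964. The 4 *Trp53*-deficient libraries correlated among themselves at 0.879 to 0.933. For most gene lists, calls are given with and without Restored#4 and Restored#5 where these differ, a choice made after the data were seen. All 8 epithelial marker genes were detected above the filter, and their summed level ranged from 16247 to 24752 CPM (counts relative to the scaled library total, on the usual CPM scale) in the *Trp53*-deficient and from 17486 to 49568 CPM in the wild-type libraries. The list includes the surfactant gene *Sftpc*, which alone held 4.71% of counts in Restored#7, so the sum there is mostly *Sftpc*. Of the 8 markers, 5 had a log2 fold change above 0 and 3 below, with a median of 0.13. At an adjusted p under 0.05, edgeR's test gave 1 as lower, *Nkx2-1*, and DESeq2 gave 2 as lower. Without Restored#4 and Restored#5, edgeR's test gave 3 as higher, *Krt8* (1.30), *Krt18* (1.25) and *Epcam* (0.55). It then gave 2 as lower, *Sftpc* (-1.19) and *Nkx2-1* (-0.90). The 25 leukocyte markers summed to 394 CPM in Restored#1 and 215 CPM in Restored#6, and to between 16.8 and 50.8 CPM in the other 9 libraries, with 3 of them at 0 throughout. The 12 endothelial markers summed to between 68.4 and 196 CPM over the 11 libraries, and the 6 red blood cell genes to at most 3.59 CPM.

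The deleted gene was examined first. *Trp53* (chr11:69580359-69591873, mm10) stood at 3.86, 2.34, 3.59 and 2.65 CPM in the 4 *Trp53*-deficient libraries and ranged from 20.7 to 39.3 CPM with a median of 27.8 in the 7 wild-type libraries. The groups did not overlap, and the mean was 3.11 ± 0.733 CPM (SD, n = 4) against 30.6 ± 7.9 CPM (SD, n = 7). In edgeR's quasi-likelihood test across 12619 genes *Trp53* was lower (log2 fold change -3.31 ± 0.27 (SE), adjusted p = 4.4e-05), and in the exact permutation test over the 330 ways to split the 11 libraries, two-sided, the difference in mean log2 CPM was -3.08 (p = 0.00303, the smallest these libraries allow, adjusted p = 0.00455 over the 3 genes so tested). The counts that remained do not show which part of the gene they come from, since the values are totals per gene. In bulk libraries, fewer cells that express a gene and less RNA of it per cell cannot be told apart.

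*Cdkn1a* (chr17:29090976-29100727) encodes p21, the cyclin-dependent kinase inhibitor through which p53 arrests the cell cycle. It stood at 64.7, 166, 75.5 and 85.8 CPM in the *Trp53*-deficient libraries and ranged from 273 to 407 CPM with a median of 278 in the wild-type libraries. The groups did not overlap, *Trp53*-deficient replicate 2 was nearest to the wild-type range, and the fall was less deep than that of *Trp53* itself (log2 fold change -1.62 ± 0.24 (SE), adjusted p = 0.0092; exact permutation test, two-sided, difference -1.71 on the log2 scale, p = 0.00303, adjusted p = 0.00455). Without *Trp53*-deficient replicate 3 the adjusted p in edgeR's test was 0.0535, at a log2 fold change of -1.51, and over all 21 alternative fits it ran from 1.3e-08 to 0.16.

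*Stk11*, the restored gene, stood at 12.9, 8.37, 10.8 and 14.8 CPM in the *Trp53*-deficient libraries and ranged from 11.6 to 22.2 CPM with a median of 15.3 in the wild-type libraries. The groups overlapped, with all 4 *Trp53*-deficient values below the wild-type median and 2 of them below the wild-type range. Neither test called a difference (edgeR log2 fold change -0.43 ± 0.23, SE, adjusted p = 0.34; exact permutation test, two-sided, adjusted p = 0.0697). Over the leave-one-out repeats that adjusted p ran from 0.0381, without Restored#1, to 0.2, without *Trp53*-deficient replicate 2. On the log2(TPM + 1) scale the exact permutation test gave an adjusted p of 0.0212 for a difference of -0.51, so this call depends on the scale and on Restored#1.

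**Figure D1:**
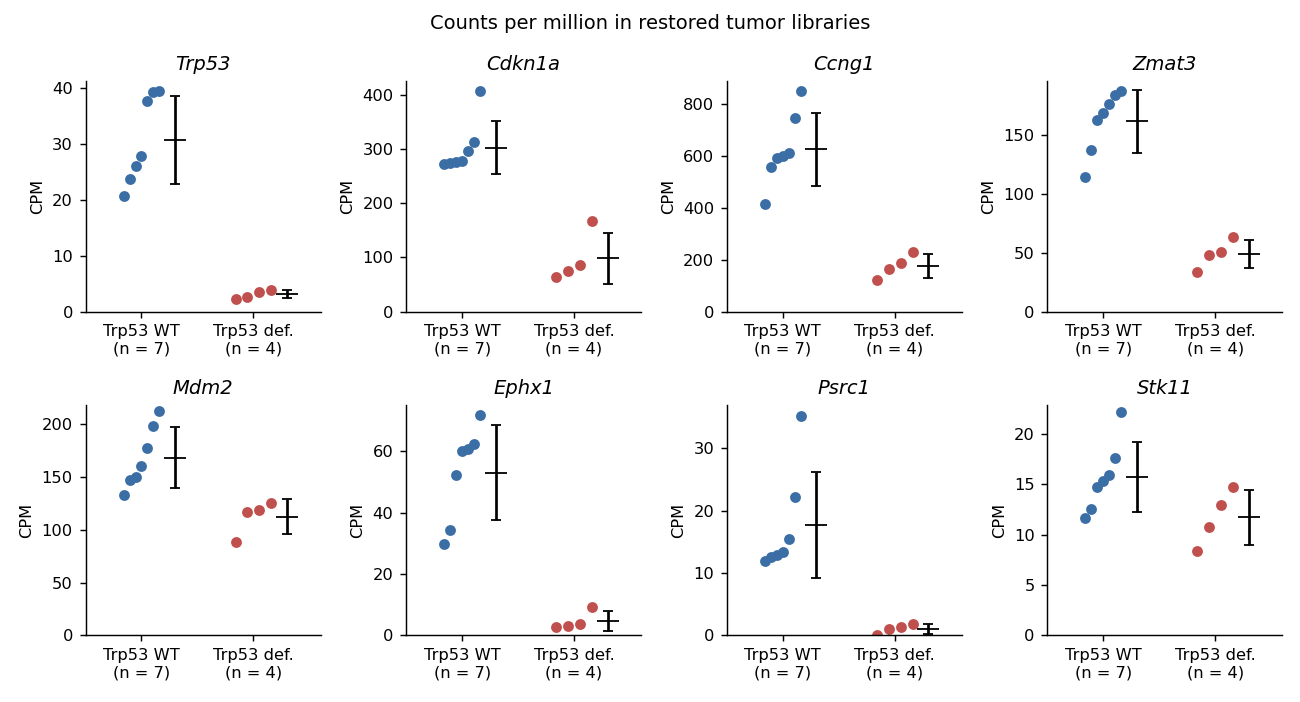
CPM of 8 genes (vertical axes, linear from 0) in the 7 *Trp53* wild-type (blue) and 4 *Trp53*-deficient (red) restored libraries. Each point is a library, sorted by value within its group, and the black bars show the mean ± SD. The red and blue points do not overlap for *Trp53*, *Cdkn1a*, *Ccng1*, *Zmat3*, *Mdm2*, *Ephx1* and *Psrc1*, and they overlap for *Stk11*.

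The sequence upstream of *Cdkn1a* is shown because *Cdkn1a* is the best known p53 target, and that of *Ccng1* because it is the most abundant p53 target that fell. In each, a match to the p53 half-site consensus was sought by name, a 10-base pattern that fixes a C and a G and takes classes of letters elsewhere. Its reverse complement is the same pattern, so both strands were covered. Capitals mark the matches in the 250 bases before the RefSeq start site (GRCm38.p6), at chr17:29090729-29090978 on the plus strand for *Cdkn1a* and at chr11:40755287-40755536 on the minus strand for *Ccng1*, both written 5′ to 3′ on the gene's own strand.

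Cdkn1a: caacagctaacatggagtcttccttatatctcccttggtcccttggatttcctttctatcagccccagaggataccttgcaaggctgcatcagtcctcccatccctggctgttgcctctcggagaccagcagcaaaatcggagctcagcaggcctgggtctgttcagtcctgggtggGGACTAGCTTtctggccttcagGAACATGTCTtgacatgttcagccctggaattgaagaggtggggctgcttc

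Ccng1: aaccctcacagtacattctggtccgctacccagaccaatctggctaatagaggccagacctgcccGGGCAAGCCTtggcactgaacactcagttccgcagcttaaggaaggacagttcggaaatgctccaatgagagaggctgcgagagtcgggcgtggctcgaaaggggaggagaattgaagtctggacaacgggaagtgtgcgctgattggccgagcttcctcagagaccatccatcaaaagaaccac

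The matches began 73 and 51 bases before the start site in *Cdkn1a*, with 12 bases between them, and 185 bases before it in *Ccng1*. Only exact matches were marked. In *Cdkn1a* the bases tgacatgttc, which directly follow GAACATGTCT, depart from the pattern only at their opening t and so were left unmarked. Which of these half-sites p53 binds was not tested. Of the 32851 windows of 300 bases (250 before and 50 after each annotated start site), 8.36% held a half-site match and 0.0731% held a pair of them at most 13 bases apart, as *Cdkn1a* does. Of the 9 p53 targets that were lower in *Trp53*-deficient tumors 8 had a promoter entry, 2 of these held a match, and 1 held the pair. Among all tested p53 targets, called or not, 42 had an entry and 13 of these held a match, in 25% of their windows. Response elements outside these windows were not searched.

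Across the transcriptome, genes were then compared in edgeR's test. At an adjusted p under 0.05, here called a call, 97 of 12619 genes differed (0.769%). Of these, 49 were higher (0.388% of genes tested) and 48 were lower (0.38%) in *Trp53*-deficient tumors, the median log2 fold change of all genes was 0.0015, 408 genes (3.23%) had groups that did not overlap, and 17.2% had an unadjusted p under 0.05. DESeq2 called 4.51% of genes, 2.22% lower and 2.29% higher. Against this background, 9 of the 52 tested p53 targets were lower and 0 were higher by edgeR (0 higher also by DESeq2, 1 at an unadjusted p under 0.05). The gene lists were chosen with earlier results of these data known, so these counts are not an independent test. In all 39 of the 52 had a log2 fold change below 0, and their median was -0.49, and in 13 of them, all lower, the groups did not overlap, as in 1.63% of all genes. Of the 60 listed targets *Cpt1c*, *Gls2*, *Mgmt*, *Pidd1*, *Pltp*, *Ptprv*, *Rad51c* and *Trp53aip1* were not tested, 7 of them for low counts. Without Restored#4 and Restored#5, 11 of 49 targets were lower and 2 were higher, against 4.41% and 6.73% of the 12007 genes tested then, of which 11.1% were called. The summed level of the targets was 1936, 2357, 2026 and 2211 CPM in the *Trp53*-deficient libraries and ranged from 3004 to 3626 CPM in the wild-type libraries, with Restored#4 and Restored#5 at 3579 and 3626 CPM. No *Trp53*-deficient library reached the wild-type range of this sum, to which abundant genes contribute most. By role, the sums overlapped for the cell death targets (225 to 379 CPM in *Trp53*-deficient and 189 to 389 CPM in wild-type libraries). They also overlapped for the DNA repair targets (184 to 208 against 196 to 238 CPM), and not for the other roles. The counts of calls depended on the libraries used. Titles of 2 *Trp53*-deficient libraries begin with other letters (JB) than those of the remaining 9, all of which hold SP. Against the 7 wild-type libraries, 59 genes (0.446% of those tested, 0.257% lower) and 5 lower p53 targets were called from the SP-titled pair, and 29 genes (0.214%, 0.081% lower) and 5 lower p53 targets from the JB-titled pair. Without *Trp53*-deficient replicate 3, 22 genes were called in all (0.168%, 0.0916% lower) and 4 p53 targets were lower, namely *Ccng1*, *Zmat3*, *Psrc1* and *Ephx1*.

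**Figure D2:**
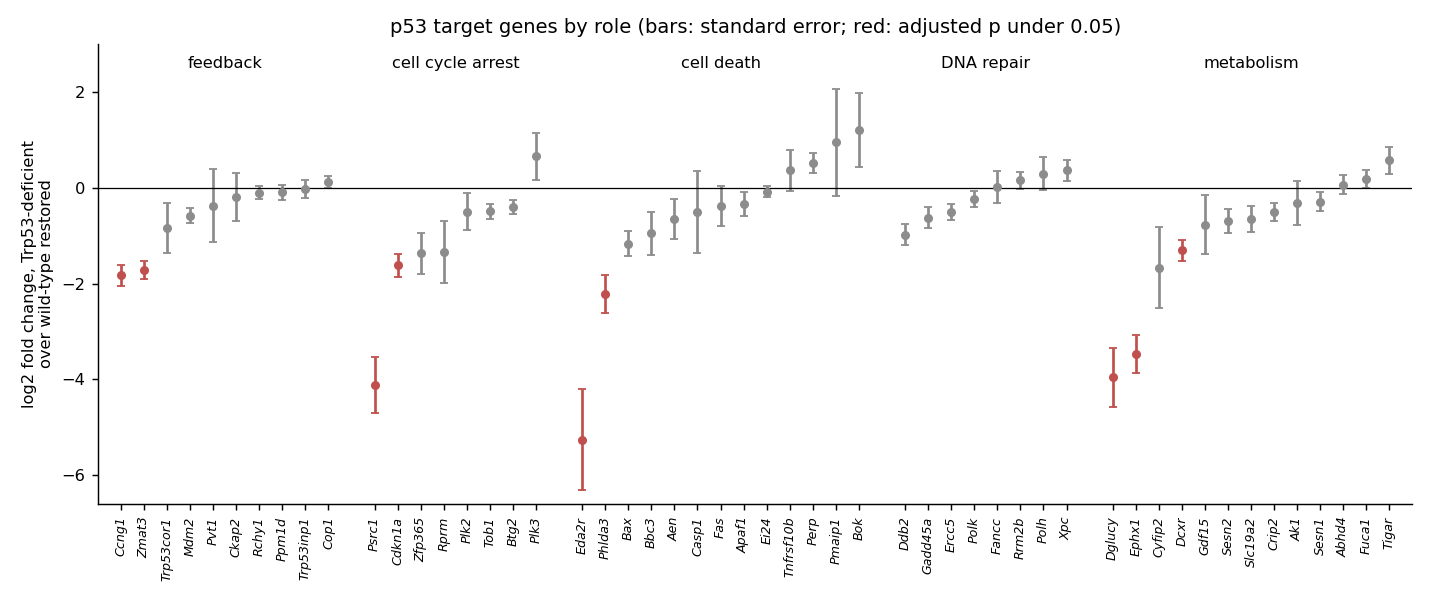
Log2 fold change (vertical axis) of the 52 tested p53 targets in *Trp53*-deficient over wild-type restored tumors, grouped by role, with bars for the standard error and the 9 called genes in red. Called genes run from -1.31 (*Dcxr*) to -4.12 (*Psrc1*), beyond which lies *Eda2r*, whose fitted value of -5.26 rests on 2 counts, and every gene above 0 has an adjusted p over 0.05.

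Among the genes that act back on p53, *Ccng1* and *Zmat3* fell. *Ccng1*, which encodes cyclin G1, stood at 187, 121, 166 and 229 CPM in the *Trp53*-deficient libraries and ranged from 415 to 851 CPM with a median of 599 in the wild-type libraries. The groups did not overlap (log2 fold change -1.83 ± 0.21 (SE), adjusted p = 0.0011). *Zmat3*, a zinc finger RNA-binding protein, stood at 51.1, 33.9, 48.1 and 63.5 CPM and ranged from 115 to 188 CPM with a median of 169 in the wild-type libraries, again without overlap (log2 fold change -1.72 ± 0.19 (SE), adjusted p = 0.0006). Both were called in all 21 alternative fits. *Mdm2* was at 88.1, 119, 117 and 125 CPM against a range from 133 to 212 CPM with a median of 160.1. Its groups did not overlap either, but edgeR did not call it (log2 fold change -0.58 ± 0.15 (SE), adjusted p = 0.093), and over the alternatives the adjusted p ran from 0.017 (DESeq2) to 0.27. The other 7 genes of the list, *Trp53cor1*, *Pvt1*, *Ckap2*, *Rchy1*, *Ppm1d*, *Trp53inp1* and *Cop1*, were not called and had log2 fold changes between -0.84 and 0.12.

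Of the targets that slow division, *Cdkn1a* and *Psrc1* fell among 8 tested. *Psrc1*, a microtubule-associated protein, had few counts in *Trp53*-deficient libraries, at 0, 0.973, 1.35 and 1.76 CPM, and ranged from 11.9 to 35.2 CPM with a median of 13.4 in the wild-type libraries. The groups were far apart (log2 fold change -4.12 ± 0.59 (SE), adjusted p = 0.0079), and *Psrc1* was called in all 20 alternative fits that tested it. *Zfp365* (-1.37 with an adjusted p of 0.14), *Rprm* (-1.34 with an adjusted p of 0.31), *Plk2* (-0.50 with an adjusted p of 0.53), *Tob1* (-0.49 with an adjusted p of 0.16), *Btg2* (-0.41 with an adjusted p of 0.18) and *Plk3* (0.65 with an adjusted p of 0.52) were not called on the log2 scale. *Btg2* was called as lower once Restored#4 and Restored#5 were left out (-0.49).

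Among 13 tested targets of cell death, *Eda2r* and *Phlda3* fell. *Eda2r*, a receptor of the TNF family, had 2 counts in all 4 *Trp53*-deficient libraries together and 161 in the wild-type libraries, a ratio of 53.5 per scaled count with an exact 95% counting interval of 14.6 to 445, which covers counting error only. It ranged from 0.599 to 12.7 CPM with a median of 5.36 in the wild-type libraries, and its adjusted p was 0.04. *Phlda3*, an inhibitor of AKT signaling, stood at 1.59, 1.56, 2.25 and 0.882 CPM and ranged from 4.53 to 11.9 CPM with a median of 7.28 in the wild-type libraries (log2 fold change -2.22 ± 0.40 (SE), adjusted p = 0.025). Both are low-count genes whose calls were lost when single libraries were left out. The adjusted p of *Eda2r* ran from 0.0593 to 0.125 without *Trp53*-deficient replicate 2, 3 or 4 or Restored#1 or Restored#2, and that of *Phlda3* from 0.0504 to 0.0784 without *Trp53*-deficient replicate 2, 3 or 4 or Restored#1 or Restored#3.

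*Bax*, the pore-forming effector of mitochondrial apoptosis, was at 5.68, 7.01, 8.54 and 6.84 CPM and ranged from 9.58 to 21.5 CPM with a median of 17 in the wild-type libraries. These groups did not overlap, but the adjusted p was 0.062 (log2 fold change -1.17). Over the alternatives it ran from 0.0056 to 0.23, and *Bax* was called without Restored#6, without Restored#4 and Restored#5 together (-1.06), by DESeq2 and with at least 10 counts in every library. *Pmaip1*, which encodes the BH3-only protein NOXA, showed the opposite order in most libraries, at 16.4, 47.7, 32.3 and 35.9 CPM in the *Trp53*-deficient group and at most 3.88 CPM in 5 wild-type libraries, while Restored#4 and Restored#5 were at 63.9 and 42.7 CPM. It was not called (0.95 with an adjusted p of 0.71) unless Restored#4 and Restored#5 were left out, when it was higher by 4.14 on the log2 scale, and *Bok* followed the same pattern (1.21, and 2.66 without them). The remaining 8, *Bbc3*, *Aen*, *Casp1*, *Fas*, *Apaf1*, *Ei24*, *Tnfrsf10b* and *Perp*, were not called and had log2 fold changes from -0.95 (*Bbc3*) to 0.52 (*Perp*).

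None of the 8 tested DNA repair targets was called by edgeR, with 3 at an unadjusted p under 0.05 and 1, *Ddb2*, called by DESeq2. *Ddb2*, which recognizes ultraviolet damage, was at 6.59, 7.01, 5.84 and 5.95 CPM and ranged from 7.75 to 16.5 CPM with a median of 12.5 in the wild-type libraries. Its groups did not overlap (log2 fold change -0.98, edgeR adjusted p = 0.069), and edgeR called it as lower without Restored#4 and Restored#5. *Gadd45a* (-0.62), *Ercc5* (-0.51), *Polk* (-0.23), *Fancc* (0.01), *Rrm2b* (0.15), *Polh* (0.29) and *Xpc* (0.36) lay on either side of 0 on the log2 scale.

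Metabolic targets gave 3 calls among 13 tested, all lower. *Ephx1*, microsomal epoxide hydrolase, stood at 9.31, 2.92, 2.7 and 3.75 CPM in the *Trp53*-deficient libraries and ranged from 29.6 to 71.6 CPM with a median of 60.03 in the wild-type libraries (log2 fold change -3.47 ± 0.39 (SE), adjusted p = 0.00098). *Dglucy*, D-glutamate cyclase, stood at 0.454, 0, 0.449 and 1.1 CPM and ranged from 3.23 to 12.4 CPM with a median of 8.38 in the wild-type libraries (log2 fold change -3.95 ± 0.62 (SE), adjusted p = 0.013). *Dcxr*, a dicarbonyl and xylulose reductase, stood at 36.6, 32.5, 27 and 28 CPM and ranged from 49.7 to 111 CPM with a median of 75.5 in the wild-type libraries (log2 fold change -1.31 ± 0.21 (SE), adjusted p = 0.014). In none of the 3 did the groups overlap, and without *Trp53*-deficient replicate 3 the adjusted p was 0.0554 for *Dglucy* and 0.0625 for *Dcxr*. *Cyfip2*, *Gdf15*, *Sesn2*, *Slc19a2*, *Crip2*, *Ak1*, *Sesn1*, *Abhd4*, *Fuca1* and *Tigar* were not called, and their log2 fold changes ran from -1.67 (*Cyfip2*) to 0.57 (*Tigar*).

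Among p53 and its regulators *Trp53* alone was called of 8 tested. *Cdkn2a*, whose locus encodes ARF, an antagonist of Mdm2, and the cell cycle inhibitor p16, was at 13.2, 8.37, 24.3 and 0.882 CPM and ranged from 2.45 to 5.81 CPM with a median of 3.06 in the wild-type libraries. The highest 3 *Trp53*-deficient values exceeded the wild-type range and replicate 4 lay below it (1.73 with an adjusted p of 0.16). *Cdkn2a* was called as higher without replicate 4, and its adjusted p over the alternatives ran from 0.025 to 0.42. The deposited totals do not separate the products of the locus. *Mdm4* (-0.42 with an adjusted p of 0.16), *Cdkn2b* (0.48 with an adjusted p of 0.38), *Cdkn2c* (0.22 with an adjusted p of 0.77), *Usp7* (0.06 with an adjusted p of 0.8), *Atm* (0.22 with an adjusted p of 0.41) and *Chek2* (-0.10 with an adjusted p of 0.94) were not called on the log2 scale. Without Restored#4 and Restored#5 *Mdm4*, an inhibitor of p53, was also lower (-0.51), which gives 2 calls of 8.

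The calls reached beyond the p53 lists. The 10 genes with proper names and the smallest adjusted p among those lower by more than 1 on the log2 scale included *Rpl3-ps1*, *Trp53*, *Zmat3*, *Ephx1*, *Ccng1*, *Egfl6*, *Gstt1*, *Psrc1* and *Cdkn1a*. *Egfl6*, a secreted protein with epidermal growth factor repeats, was at 634, 578, 403 and 524 CPM against a range from 959 to 1237 CPM with a median of 1027 (log2 fold change -1.01 ± 0.14 (SE), adjusted p = 0.0054). *Gstt1*, a glutathione transferase, was at 22.5, 23.2, 20.2 and 27.1 CPM against a range from 36.2 to 55.6 CPM with a median of 47.4 (log2 fold change -1.01 ± 0.14 (SE), adjusted p = 0.007). Neither had overlapping groups.

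The 10 higher genes chosen in the same way were *Apobec3*, *Rpl34*, *Cdc73*, *Ctsl*, *Ltbp1*, *Cubn*, *Ptprn*, *Angptl2*, *Tnfrsf26* and *Kirrel*. *Apobec3*, a cytidine deaminase that restricts retroviruses, was at 86.3, 111, 90.7 and 83.6 CPM in the *Trp53*-deficient libraries and ranged from 11 to 21.7 CPM with a median of 18.8 in the wild-type libraries (log2 fold change 2.44 ± 0.19 (SE), adjusted p = 2.1e-05). *Cdc73*, a subunit of the PAF1 transcription elongation complex, was at 306, 420.1, 405 and 248 CPM against a range from 123 to 179 CPM with a median of 156 (log2 fold change 1.16 ± 0.16 (SE), adjusted p = 0.0048). *Ctsl*, the lysosomal protease cathepsin L, was at 255, 332, 487 and 379.9 CPM against a range from 125 to 214 CPM with a median of 155 (log2 fold change 1.12 ± 0.18 (SE), adjusted p = 0.014). In these 3 the groups did not overlap.

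The other 6 higher genes included secreted and membrane proteins. *Ptprn*, a membrane protein of dense-core secretory vesicles, was at 47.7, 193, 75.5 and 47.2 CPM against a range from 14.2 to 23 CPM with a median of 17 (log2 fold change 2.27 ± 0.35 (SE), adjusted p = 0.014). *Ltbp1*, which binds latent TGFβ, was at 82, 17.1, 78.6 and 24 CPM against a range from 6.36 to 13.2 CPM with a median of 7.66 (log2 fold change 2.56 ± 0.40 (SE), adjusted p = 0.014). *Cubn*, the endocytic receptor cubilin, was at 19.1, 6.62, 35 and 5.07 CPM against a range from 0.299 to 2.7 CPM with a median of 1.37 (log2 fold change 3.55 ± 0.57 (SE), adjusted p = 0.014). Even the lowest *Trp53*-deficient library lay above the wild-type range for these 3 and for *Kirrel* (1.67), an immunoglobulin-family adhesion protein. The groups overlapped for *Angptl2* (2.99), a secreted glycoprotein, through replicate 4 at 3.53 CPM, and for *Tnfrsf26* (2.89), a TNF receptor family member, through replicate 1 at 9.54 CPM. Without *Trp53*-deficient replicate 3 the adjusted p of *Ctsl*, *Ltbp1*, *Cubn*, *Angptl2*, *Tnfrsf26* and *Kirrel* was between 0.0554 and 0.063, and without replicate 2 it was 0.0585 for *Angptl2* and 0.0551 for *Tnfrsf26*, while *Kirrel* gave 0.0534 without replicate 4. Ranked among the same genes were 3 higher (*Gm10260*, *Gm11361* and *AC113595.1*) and 2 lower (*Gm12191* and *BC018473*) genes without proper names.

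Several of the most significant genes have near-identical copies elsewhere in the genome, among which the counting must divide reads, so that a gene and its copy cannot be fully told apart. *Rpl3-ps1*, a processed pseudogene of ribosomal protein gene *Rpl3*, was at 16.8, 20.2, 22 and 19.4 CPM in the *Trp53*-deficient libraries and ranged from 376 to 499 CPM with a median of 421 in the wild-type libraries (log2 fold change -4.44 ± 0.14 (SE), adjusted p = 1.5e-09). *Rpl3* itself moved the other way (log2 fold change 0.72 ± 0.11 (SE), adjusted p = 0.0092), and the sum over *Rpl3* and its 6 counted copies was 781 ± 55.5 CPM (SD, n = 4) against 886 ± 69.5 CPM (SD, n = 7), a log2 difference of -0.18. *Gm10260* (6.02) and *Gm11361* (5.24), copies of *Rps18*, were higher in every *Trp53*-deficient library than in any wild-type library, while their family sum differed by 0.34. Likewise *Rpl34* was higher (log2 fold change 1.88 ± 0.13 (SE), adjusted p = 1e-05) and *Gm12191*, a copy of *Rpl30*, was lower (-3.14), with family sums that differed by 0.29 and 0.25. For *Ftl1-ps1* (-0.97) and *Rpl15-ps3* (0.74) the sums differed by -0.083 and 0.36. The 7 family sums were tested by exact permutation over the 330 splits, two-sided, as an alternative chosen after the data were seen, and 4 had an adjusted p under 0.05, namely *Rpl3*, *Rpl34* and *Rpl15* at 0.0424 and *Hmga1* at 0.0212. Only the *Hmga1* sum, with *Hmga1b*, differed by more than 1 on the log2 scale (1.80, with 47 ± 20.5 CPM, SD, n = 4, against 13.5 ± 5.68 CPM, SD, n = 7). In non-restored tumors *Rpl3-ps1* differed by -3.27 ± 0.23 and *Gm10260* by 6.91 ± 0.44 (SE) on the log2 scale. The mice were of mixed C57BL/6J:129 background. The part of strain-specific sequence was not tested, in these copies or in any other called gene.

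**Figure D3:**
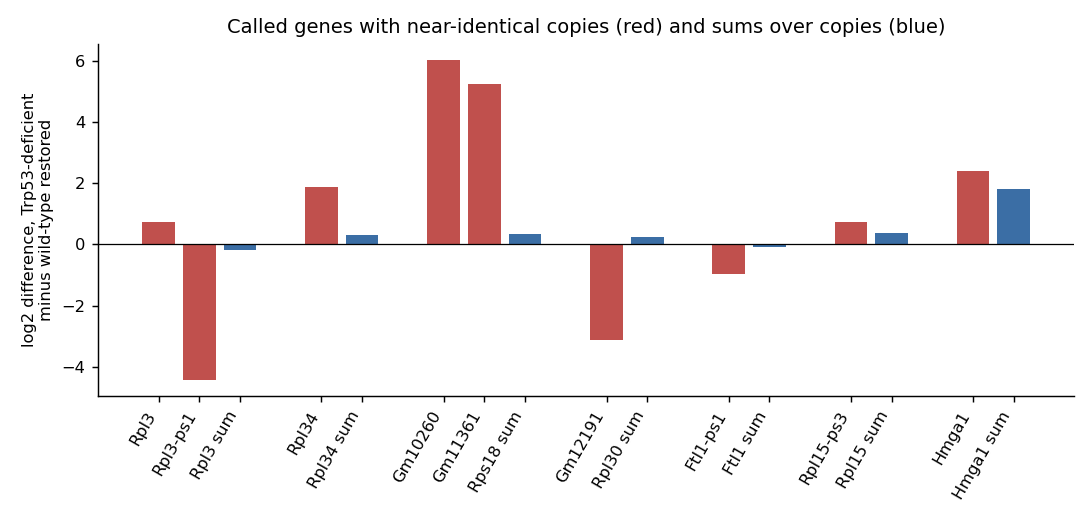
Log2 difference between *Trp53*-deficient and wild-type restored libraries (vertical axis). Red bars give the fitted log2 fold change of chosen called genes that have near-identical copies. Blue bars give the difference in mean log2 of the summed CPM of each gene with its copies. Other called genes with near-identical copies are not shown. Single members reach 6.02 and -4.44, and among the sums shown only that of *Hmga1* exceeds 1 in size.

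The genes around *Trp53* were also examined. Of 111 tested genes within 5 Mb of *Trp53* on chromosome 11, *Trp53* alone was called, and 13 had an unadjusted p under 0.05, as did 17.2% of all genes tested. On the whole chromosome 9 of 925 tested genes were called, *Trp53* itself, *Ccng1* and *Dcxr* among them, where 0.769% of all genes tested were called.

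Next, lineage programs were compared. *Nkx2-1*, the transcription factor that specifies lung epithelium, was at 119, 143, 147 and 151 CPM in the *Trp53*-deficient libraries and ranged from 193 to 383 CPM with a median of 233 in the wild-type libraries. The groups did not overlap (log2 fold change -0.85 ± 0.17 (SE), adjusted p = 0.042). *Hmga1*, a chromatin protein abundant in fetal and transformed cells, was at 20.4, 45.2, 60.2 and 33.7 CPM and ranged from 1.35 to 13 CPM with a median of 8.37 in the wild-type libraries, also without overlap (log2 fold change 2.40 ± 0.47 (SE), adjusted p = 0.04). These were the 2 calls among 18 tested lineage factors, whose median log2 fold change was 0.0081, and DESeq2 called 1 higher and 2 lower. Without Restored#4 and Restored#5, 4 were higher, *Hnf4a* (5.60), *Hmga2* (5.84), *Hmga1* (2.03) and *Klf5* (0.66), and *Nkx2-1* (-0.90), *Cebpa* (-0.63) and *Elf5* (-0.73) were among those lower. With all 7 wild-type libraries either call was lost when any of several single libraries was left out. For *Nkx2-1* the adjusted p was then 0.0516 to 0.125 (each *Trp53*-deficient replicate, Restored#2, Restored#6 or Restored#7), and for *Hmga1* it was 0.0504 to 0.128 (*Trp53*-deficient replicate 2, 3 or 4, Restored#1, Restored#2, Restored#3, Restored#6 or Restored#7).

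Genes of the alveolar type II cell gave a picture that turned on Restored#4 and Restored#5. The 23 genes of the list summed to 81476, 65347, 52902 and 81101 CPM in the *Trp53*-deficient libraries, to 64490.1 and 78811 CPM in Restored#4 and Restored#5, and to between 146506 and 184194 CPM in the other 5 wild-type libraries. With all 7 wild-type libraries, 0 of 23 were called by edgeR, 8 were lower by DESeq2, 15 were lower at an unadjusted p under 0.05, and the median log2 fold change was -0.70. Without Restored#4 and Restored#5, 13 of 23 were lower and 0 higher by edgeR, with a median of -0.92. *Lyz2*, lysozyme, was at 7149.8, 3017, 2161 and 2365 CPM in the *Trp53*-deficient libraries, at 5830 and 7729 CPM in Restored#4 and Restored#5 and between 22820 and 31479 CPM in the other 5. Its log2 fold change was -2.53 with an adjusted p of 0.066 with all libraries, and -2.88, called, without them. It was also called when Restored#4, Restored#5 or *Trp53*-deficient replicate 1 alone was left out, and its adjusted p over the alternatives ran from 8.1e-05 to 0.35. *Sftpc*, surfactant protein C, changed from -0.92 to -1.19, *Sftpa1*, surfactant protein A, from -1.05 to -1.31, and *Slc34a2*, a phosphate transporter, from -0.66 to -0.89, each called by edgeR once those libraries were left out. MHC class II genes, which alveolar type II cells express, followed the same course. By edgeR 0 of 7 were called, with 5 at an unadjusted p under 0.05 and 4 by DESeq2, and 5 were called without Restored#4 and Restored#5, among them *H2-Aa* (-1.32), *H2-Ab1* (-1.58) and *H2-Eb1* (-1.34). For both lists the sums of Restored#4 and Restored#5 lay within the range of the *Trp53*-deficient libraries. Leaving them out therefore widens the difference by construction, and the added calls are not independent support for it.

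A program of *Krt8*-positive cells, a transitional state between alveolar type II and type I cells, lay in the opposite direction. Its 18 detected genes summed to 5111, 9015, 9677 and 9035 CPM in the *Trp53*-deficient libraries, to 9851 and 9036 CPM in Restored#4 and Restored#5, and to between 1253 and 2328 CPM in the other 5. With all libraries 0 of 18 were called by edgeR (0 by DESeq2, 4 higher at an unadjusted p under 0.05), with a median of 0.68, and without those 2 libraries 14 of 18 were higher, with a median of 1.65. The sums of those 2 lay beside the *Trp53*-deficient ones, so here too leaving them out widens the difference by construction. *Clu*, the secreted chaperone clusterin, was at 2845, 4252, 6225 and 5223 CPM in the *Trp53*-deficient libraries, 5895 and 5606 CPM in Restored#4 and Restored#5 and between 262 and 822 CPM in the other 5. *Itga2*, integrin alpha 2, was at 303, 1179.5, 742 and 1081 CPM, against 512 and 520 CPM in Restored#4 and Restored#5 and between 14.2 and 47.8 CPM in the other 5. *Hnf4a*, a gut and liver transcription factor, was at 32.7, 95, 53 and 43.7 CPM, against 87.8 and 74.6 CPM in Restored#4 and Restored#5 and at most 2.64 CPM in the other 5. In all 3 genes, *Hnf4a* being chosen after its values were seen, Restored#4 and Restored#5 lay within the range of the *Trp53*-deficient libraries. Their p53 target sums lay above it. Of the alveolar type I genes 0 of 16 were called by edgeR (0 by DESeq2, 7 at an unadjusted p under 0.05), with a median of -0.28, and without Restored#4 and Restored#5 *Gprc5a* was higher (0.48) and *Ager* lower (-0.88).

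**Figure D4:**
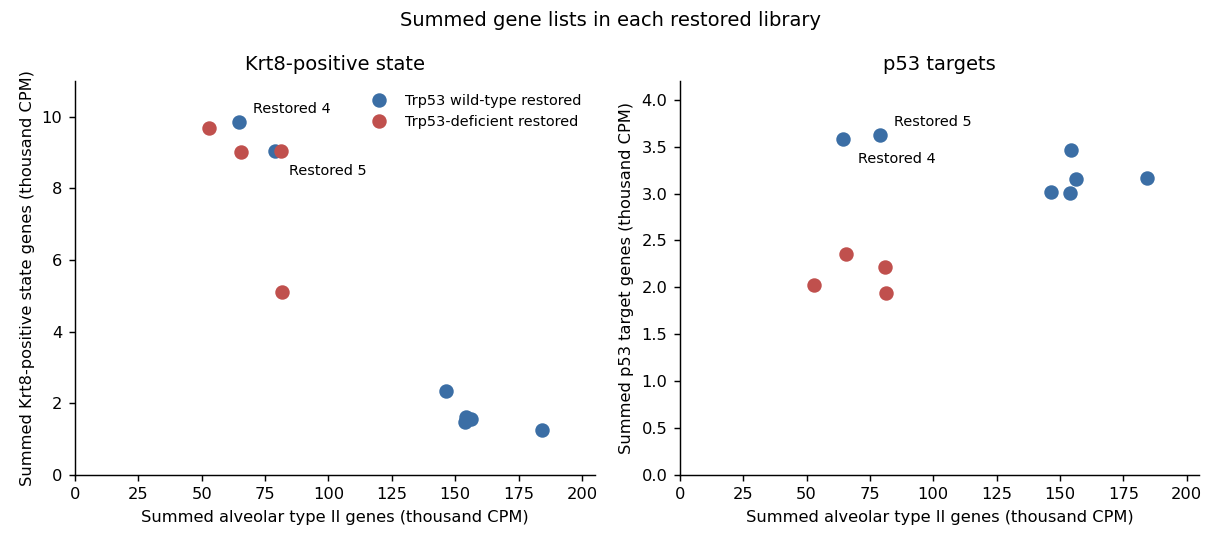
Summed CPM (axes as labelled) of *Krt8*-positive state genes (left) and of p53 target genes (right) against summed alveolar type II genes (horizontal axes), with a point for each of the 7 wild-type (blue) and 4 *Trp53*-deficient (red) restored libraries. Restored#4 and Restored#5 lie near the *Trp53*-deficient libraries on the left and above all of them on the right.

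Proliferation genes were not called. Of 26 tested mitosis genes 0 passed the threshold by edgeR (1 by DESeq2, 5 higher at an unadjusted p under 0.05), although 25 of 26 had a log2 fold change above 0 and the median was 0.87. Without Restored#4 and Restored#5 3 of 18 tested were higher, *Ccnb2*, *Anln* and *Ect2*. *Mki67*, the marker of cycling cells, was at 79.3, 137, 20.7 and 32 CPM in the *Trp53*-deficient libraries and ranged from 9.58 to 72.1 CPM with a median of 34.8 in the wild-type libraries. The groups overlapped widely (0.95 with an adjusted p of 0.44). *Kif23* (0.71), *Prc1* (0.13) and *Top2a* (0.22) were not called either. Of 28 DNA replication genes 0 were called (0 by DESeq2, 4 at an unadjusted p under 0.05), with a median of 0.27 and the abundant *Pcna* at -0.21, *Gins2* at -0.21, *Mcm4* at 0.42 and *Rrm1* at 0.02. Without Restored#4 and Restored#5 1 of 26 tested was higher, against 6.73% of all genes tested then.

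Among 15 tested glycolysis genes *Pkm*, pyruvate kinase, was the single call. It was at 132, 163, 148 and 99.2 CPM in the *Trp53*-deficient libraries and ranged from 54.5 to 98.6 CPM with a median of 67.2 in the wild-type libraries, the nearest values lying side by side (log2 fold change 0.92 ± 0.18 (SE), adjusted p = 0.038). *Pkm* has a near-identical copy, *Gm6560* (98.37% identity), with which it was not summed. Of the list 14 of 15 had a log2 fold change above 0, with a median of 0.56. DESeq2 called 2 as higher, and 8 were higher at an unadjusted p under 0.05. Without Restored#4 and Restored#5 5 of 15 were higher, including the glucose transporter gene *Slc2a1* (1.63). Without any 1 of *Trp53*-deficient replicates 2 and 3 or Restored#1, Restored#2, Restored#3, Restored#6 and Restored#7 the adjusted p of *Pkm* was 0.0695 to 0.125. Of 14 hypoxia genes 0 were called by edgeR (0 by DESeq2, 6 at an unadjusted p under 0.05), and without Restored#4 and Restored#5 3 were higher, *Ndrg1* (4.02), *Stc2* (3.34) and *Kdm3a* (0.67).

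*Itgav*, integrin alpha V, was the single call among 15 tested mesenchymal genes. It was at 487, 574, 529.6 and 384 CPM in the *Trp53*-deficient libraries and ranged from 232 to 374 CPM with a median of 296 in the wild-type libraries, without overlap (log2 fold change 0.77 ± 0.14 (SE), adjusted p = 0.031). Without any 1 of *Trp53*-deficient replicates 2 and 3 or Restored#2, Restored#3, Restored#6 and Restored#7 its adjusted p was 0.0536 to 0.109. The median of the list was 1.27, DESeq2 called 5 of the 15 as higher, 6 were higher at an unadjusted p under 0.05, and without Restored#4 and Restored#5 edgeR called 2, *Itgav* and *Mmp14* (0.91). The 12 fibroblast and mural markers summed to 2158, 343, 141 and 7.72 CPM in the *Trp53*-deficient libraries and to between 45.6 and 419 CPM in the wild-type libraries, so that both the highest and the lowest sum were in *Trp53*-deficient libraries, and none of the 12 was at 0 throughout. Their part in the mesenchymal list was not tested.

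Of 19 tested genes of the LKB1 complex and its downstream kinases 0 were called by edgeR (2 by DESeq2, *Prkaa2* and *Prkag2*, both lower, and 5 at an unadjusted p under 0.05), with a median of -0.04. *Cab39* (0.21), *Cab39l* (-0.35), *Prkaa1* (0.23) and *Sik1* (0.46) were the most abundant of them. Type I interferon genes (0 of 16 called, 0 by DESeq2, 2 at an unadjusted p under 0.05) and MHC class I genes (0 of 11, 0 by DESeq2, 0 at an unadjusted p under 0.05) gave medians of 0.091 and 0.0017. Secreted factors of senescent cells gave 0 of 14 called by edgeR, 2 by DESeq2 and 5 at an unadjusted p under 0.05, and without Restored#4 and Restored#5 2 were higher, *Timp1* (4.56) and *Plat* (2.64). Of the tested leukocyte (5), endothelial (10), fibroblast (10) and airway (6) markers 0 were called by edgeR, and DESeq2 called 1, the endothelial gene *Esam* (-1.11). At an unadjusted p under 0.05 there was also 1, *Esam*. Without Restored#4 and Restored#5 *Esam* was lower (-1.37) and the airway mucin gene *Muc5b* higher. The airway sum was 339.6, 362, 1343 and 191 CPM in the *Trp53*-deficient libraries, and Restored#4 and Restored#5 were at 1355 and 1630.2 CPM against 28.7 to 451 CPM in the other wild-type libraries.

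Finally, the differences were set beside those between *Trp53*-deficient and wild-type non-restored tumors, in which the *Lkb1* trap stayed in place because the mice lacked FLPo-ERT2 or had vehicle, with 7 libraries summed by the shared number in their titles to 4 units against 10 libraries, so that the fit over both settings held 25 units. The study counts fewer mice than libraries for the 10 as well, so these tests too treat libraries of 1 mouse as independent. These share no library with the restored comparison, their tumor times differ in the same way, and both groups hold males and females. Of the 97 genes called in restored tumors 95 had the same direction in non-restored tumors, against 72.7% of all 12619 genes tested in both. Of the 97, 22 (22.7%) were also called in non-restored tumors in the same direction, which is 26.8% of the 82 genes called there (0.598% of 13705 tested, 0.226% lower). Of the 9 p53 targets lower in restored tumors, 7 were also called as lower in non-restored tumors. *Trp53* itself differed by -3.27 ± 0.35 (SE) in non-restored tumors, *Cdkn1a* by -1.35 ± 0.23, *Ccng1* by -1.87 ± 0.25, *Zmat3* by -1.66 ± 0.26 and *Ephx1* by -3.41 ± 0.51 on the log2 scale.

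The test of whether the *Trp53* difference itself differs between restored and non-restored tumors called 0 of 13705 genes (0%) in edgeR (424 at an unadjusted p under 0.05) and 0 in DESeq2 (453 at an unadjusted p under 0.05). *Ptprn* was higher by 2.27 in restored tumors and differed by 0.30 ± 0.38 in non-restored tumors, with an unadjusted interaction p of 0.0026 and an adjusted p of 1. *Psrc1* fell by 4.12 in restored tumors and differed by -1.32 ± 0.69 in non-restored tumors (unadjusted interaction p = 0.014), and *Phlda3* fell by 2.22 and differed by -4.02 ± 0.49 (unadjusted interaction p = 0.0079), with adjusted p of 1 in each. These interaction tests come from edgeR's fit of 25 units, and none of the 3 passed after adjustment. In females alone, with 20 units of which 2 were *Trp53*-deficient and non-restored, 1 gene was called, *AC160336.1*, with an interaction of -3.07 (adjusted p = 0.0487) on the log2 scale, and 557 had an unadjusted p under 0.05. With mice of both sexes a difference between the settings is not shown for any gene, nor is its absence.

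**Figure D5:**
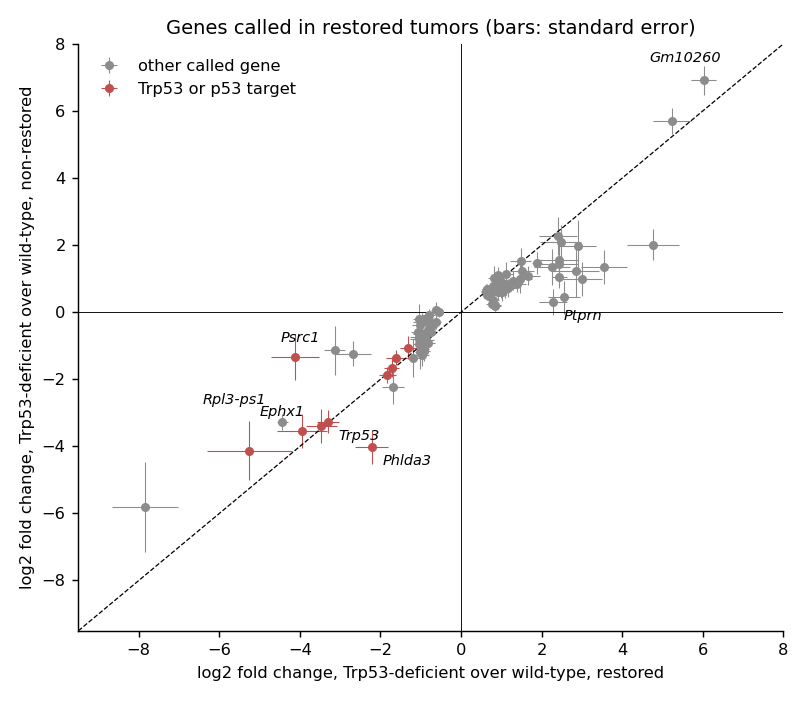
Log2 fold change of *Trp53*-deficient over wild-type tumors in restored (horizontal) and non-restored (vertical) tumors for the 97 genes called in restored tumors, with bars for the standard error and a dashed line of equality. *Trp53* and the 9 called p53 targets are red, and 95 of the 97 points lie in the quadrants of equal direction.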

How the data were processed

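RNA from sorted neoplastic cells was sequenced, and per the labels the submitters' processing notes name STAR 2.6.1d, RSEM 1.2.30 and DESeq2 1.26.0 with build mm10. The annotation release is not given in the sources used here. The deposited files hold RSEM expected counts, TPM (length-scaled by the authors) and an effective length per gene. Expected counts were rounded (on average 5.91% were not whole). Of the deposited tables of the whole series 5 were not used, among them the authors' own comparisons, which hold fold changes and p-values.

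Libraries were grouped by cohort or label, 4 against 7. Genes passing filterByExpr were scaled by TMM and tested with edgeR 4.0.16 (limma 3.58.1, R 4.3.3) by the robust quasi-likelihood F test with Benjamini-Hochberg adjustment, and a call is an adjusted p under 0.05. The SE is the log2 fold change divided by the square root of F. CPM are rounded counts divided by the TMM-scaled total, with a prior count of 2 in log2 CPM. Exact permutation tests took every assignment of the libraries to groups of 4 and 7. Alternatives were DESeq2 1.42.0, median-of-ratios scaling, other filters, effective length offsets, a fit of 25 units, subsets by title and leaving out libraries. Fits were tested on simulated data. Tables and figures came from Python 3.11.15 with matplotlib 3.10.9, scipy 1.17.1, pandas 2.3.3 and numpy 2.4.6.

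Genes named are *Trp53*, *Cdkn1a* and *Stk11*, the 10 higher and the 10 lower genes of smallest adjusted p at a log2 fold change over 1 in size, every tested p53 target or family member, and called or else up to 4 abundant members of the other lists. Some items, among them an allele that all groups carry and 1 gene that this rule names, are not reported here. Genes named outside that rule were chosen after their values were seen. The members and gene lists were chosen with earlier results of these data known. Coordinates are from the annotation of the mm10 build, promoters from RefSeq (GRCm38.p6), and copies were found by sequence match of transcripts. Depth was 1658277 to 5943951 expected counts per library, so genes at a few counts, where 3 counts correspond to 0.513 to 1.94 CPM, have wide counting error. The *Trp53*-deficient restored libraries have 4 different numbers in their titles, but the labels do not state that these are mice. The p-values therefore weigh the difference between groups against the spread between libraries, and libraries of the wild-type group may share a mouse.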

Additional observations from a re-analysis of the deposited data

Results flagged for a closer look

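In 58 groups of 4 or 7 libraries, over the named genes that were called and *Stk11*, a library that lay far from the rest of its group by Dixon's ratio was found 5 times, and chance alone marks about 1 group in 20. *Cdkn1a* was highest in Restored#7, at 407 CPM, with the next wild-type library at 313 CPM. *Nkx2-1* was highest in Restored#3, at 383 CPM, with the next wild-type library at 267 CPM. In *Trp53*-deficient replicate 1, *Ephx1* stood at 9.31 CPM against 3.75 CPM in the next library, *Eda2r* at 0.454 CPM against 0 in the other 3, and *Tnfrsf26* at 9.54 CPM, below the next library at 48.1 CPM. The same library held the highest sum of fibroblast markers. The part of stromal RNA in these values was not tested.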

How the results depend on the processing

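No paired analysis was possible because the groups came from mice of different genotypes and the labels give no pairing between them. The number of genes called, 97, became 569 with DESeq2 (96 of the 97 among them), 51 with 25 units of 4 groups, 59 with SP-titled libraries only, and 22 to 174 when 1 library was left out. With alternatives chosen after the data were seen it was 29 with JB-titled *Trp53*-deficient libraries only, 1337 without Restored#4 and Restored#5 (808 higher and 529 lower, 60.4% higher), and 30 without Restored#1 and Restored#6, which held most leukocyte RNA. Lower p53 targets numbered 5 in each title subset and 4 to 10 when 1 library was left out. Lists with a called gene, 9 of 26, became 16 with DESeq2, 5 in each title subset and without Restored#1 and Restored#6, 20 without Restored#4 and Restored#5, and 4 to 12 when 1 library was left out. The exact permutation test gave adjusted p of 0.00714 to 0.0125 for *Trp53* and *Cdkn1a* and of 0.0381 to 0.2 for *Stk11* when 1 library was left out, and 0.0212 for *Stk11* on the log2(TPM + 1) scale. The interaction gave 1 gene with female only, against 0. Of 573 values of the 28 called named genes under alternatives, 472 stayed calls, 101 lost the threshold and 0 reversed. In every alternative that tested them 12 genes were called, among them *Trp53*, *Ccng1*, *Zmat3*, *Psrc1*, *Ephx1*, *Apobec3* and *Cdc73*. The cause of these changes was not tested. No alternative separates *Trp53* status from tumor time, and low genes such as *Eda2r* are limited by depth.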

Other observations

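Genes outside the lists were also called, and those given here were chosen after their values were seen. *Cat*, catalase, was lower in *Trp53*-deficient restored tumors, at 406, 403, 354 and 231 CPM against a range from 555 to 851 CPM with a median of 708 in the wild-type libraries (log2 fold change -1.03 ± 0.17 (SE), adjusted p = 0.015). *Fgfr2*, a fibroblast growth factor receptor of lung epithelium, was at 239, 226, 137 and 172 CPM against a range from 325 to 499 CPM with a median of 373 (log2 fold change -1.07 ± 0.17 (SE), adjusted p = 0.014). *Aldh2*, mitochondrial aldehyde dehydrogenase, was lower by a smaller amount (log2 fold change -0.61 ± 0.12 (SE), adjusted p = 0.041). In none of the 3 did the groups overlap.

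*Sqle*, squalene epoxidase of the cholesterol pathway, was higher, at 66.1, 74.9, 103 and 56.9 CPM against a range from 18.5 to 39.8 CPM with a median of 29.1 (log2 fold change 1.38 ± 0.24 (SE), adjusted p = 0.017). *Asns*, asparagine synthetase (log2 fold change 0.83 ± 0.17 (SE), adjusted p = 0.046), was also higher without overlap between the groups. *S100a10*, which encodes the p11 partner of annexin A2, was higher with overlapping groups, at 74.7, 154, 185 and 138 CPM against a range from 31.1 to 78.3 CPM with a median of 41.4 (log2 fold change 1.52 ± 0.30 (SE), adjusted p = 0.041).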
